A study of Mus musculus with 8 samples.

Results

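The genes described here are 10 components of the mTORC1, TSC and AMPK signalling modules, taken by symbol from the table of fragment counts in *Eftud2* KD mouse embryonic stem cells (mESCs). They are *Mtor*, *Rptor*, *Akt1s1*, *Deptor*, *Rheb*, *Tsc1*, *Tsc2*, *Eif4ebp1*, *Prkaa1* and *Prkaa2*, 10 of the 55385 genes counted. All 10 passed the filter on low counts, as did 17445 genes in all.

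*Eftud2* encodes a GTPase of the U5 snRNP, a part of the spliceosome, and the series asked how gene expression responds when the splicing machinery is perturbed. Wild-type R1 mESCs, an established mouse line, were kept in N2B27 medium with 2i and LIF on plates coated with poly-L-ornithine and laminin, or fibronectin. They were infected for 2 days with lentivirus carrying shRNA1 or shRNA2, both against *Eftud2*, or a non-targeting hairpin (nt-shRNA), and then held in puromycin for 3 days. Every group, the control included, therefore went through lentiviral infection and puromycin selection, and each library is a population of infected cells and not a clone. Poly(A) RNA gave 3 libraries for either targeting hairpin and 2 for nt-shRNA, labelled as biological replicates.

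Depth ran from 19569525 to 29871048 assigned fragments per library, so that 3 counts equal between 0.105 and 0.148 CPM (counts relative to the library's total, adjusted by TMM factors for differences in composition). *Eftud2* itself lay at 256 to 262 CPM with nt-shRNA, 225 to 232 CPM with shRNA1 and 198 to 235 CPM with shRNA2. Its decrease passed the threshold with shRNA2 (log2 fold change -0.29, standard error 0.0678, edgeR adjusted p = 0.0012) and not with shRNA1 (-0.18, standard error 0.0678, adjusted p = 0.0514), and the shRNA1 value was -0.065 (edgeR adjusted p = 0.498) under library size alone. By qPCR, a measure other than these counts, the paper reported *Eftud2* KD with both hairpins, higher with shRNA2. It also reported less EFTUD2 protein with either hairpin by western blot. All 10 genes of a pluripotency list were detected in every library, of which 6 rose and 1 fell with shRNA1 and 7 rose and 1 fell with shRNA2. *Nanog* rose from a mean of 912 CPM to 1340.3 and 1549 CPM, *Pou5f1* fell from 774 CPM to 606 and 634 CPM, and *Sox2* was not called, at 345, 313 and 340 CPM. The summed level of the list was 4523 to 4590 CPM with nt-shRNA, 5060 to 5227 CPM with shRNA1 and 6022 to 6199 CPM with shRNA2. A list of 13 markers of differentiated cells and fibroblasts summed to only 51.4 to 60.7 CPM over all libraries, and 1 of its genes was at 0 in every shRNA2 library. The marker levels moved with the groups, and their part in the results below was not tested.

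mTORC1 is the kinase complex that couples nutrient and growth factor supply to protein synthesis. Its catalytic subunit is mTOR, raptor brings substrates to it, and PRAS40 (the product of *Akt1s1*) and DEPTOR restrain it. The GTPase RHEB switches the complex on at the lysosome, and the TSC1 and TSC2 proteins together switch RHEB off. AMPK, whose alternative catalytic subunits come from *Prkaa1* and *Prkaa2*, senses low energy and acts against mTORC1 through TSC2 and raptor. 4E-BP1, made from *Eif4ebp1*, is the mTORC1 substrate that holds back cap-dependent translation until it is phosphorylated. In mESCs this network is known for its links to proliferation and to the pausing of development. The measurements here are of transcripts, not of protein or phosphorylation.

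Relative to nt-shRNA, *Eif4ebp1* and *Tsc1* fell with both shRNAs, *Deptor* and *Prkaa2* fell with shRNA2, and *Akt1s1* and *Rheb* rose with shRNA2. *Mtor*, *Rptor*, *Tsc2* and *Prkaa1* passed the threshold in no comparison. Each of the 10 genes differed by less than 2-fold throughout. Calls are edgeR quasi-likelihood tests in a fit over all 8 libraries, at a Benjamini-Hochberg adjusted p under 0.05 over all genes tested.

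With shRNA1, 0 of the 10 members were higher and 2 were lower than with nt-shRNA (0 higher also at an unadjusted edgeR p under 0.05 and in DESeq2), where 13.8% of all tested genes were higher and 17.1% were lower. The median log2 fold change of the members was -0.06, beside -0.01 over all genes. With shRNA2, 2 members were higher and 4 lower, beside 27.2% of all genes higher and 28.7% lower. There the members' median was -0.08 and that of all genes 0.00. Between the hairpins, 2 members were higher and 2 lower with shRNA2 than with shRNA1, beside 16.9% and 18.7% of all genes. The members' median was -0.01 there. The share of members called was thus near that of all genes, and the comparisons against nt-shRNA use the same 2 control libraries. Scaling by library size alone moves the median of all genes to 0.11 with shRNA1 and 0.09 with shRNA2, and the share of calls that are higher from 44.7% to 70.5% and from 48.7% to 58.9%. The log2 fold changes given here are relative to the TMM scale, on which that median is near 0.

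**Figure D1:**
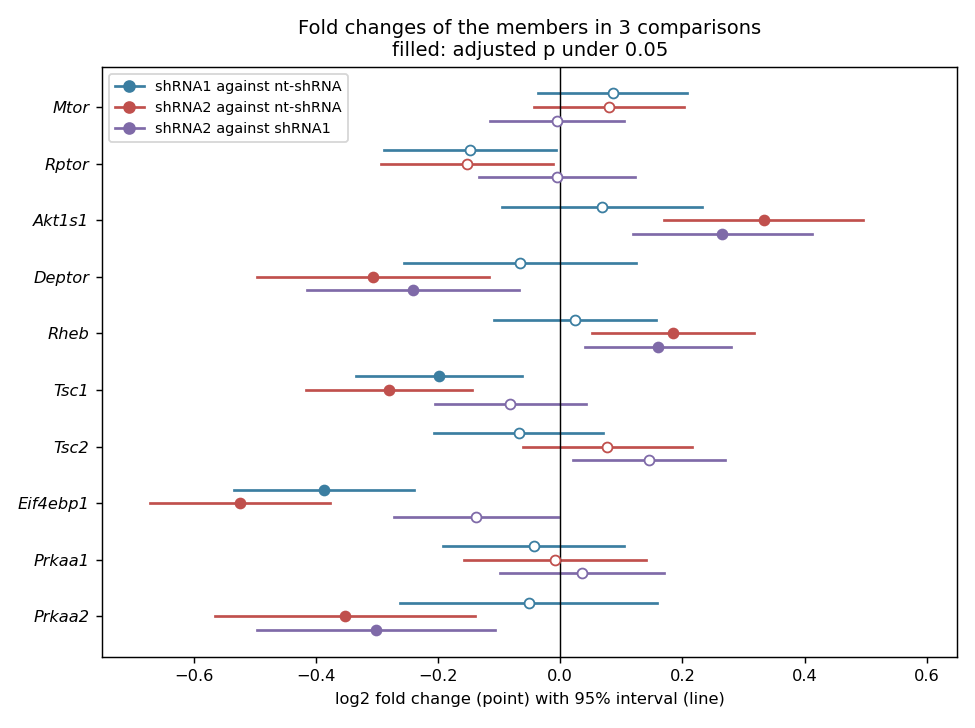
Log2 fold change (x axis) of each of the 10 members (y axis) in the 3 comparisons, with points for the edgeR estimate and bars for its 95% interval. *Eif4ebp1* lies furthest to the left at -0.52 with shRNA2, and *Akt1s1* furthest to the right at 0.33.

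Promoters are shown for the members called in at least 1 comparison that have an entry in the RefSeq promoter table (GRCm38.p6), since these are the genes whose transcripts moved. Of the 10 members, 8 matched the table by symbol, and *Deptor* and *Eif4ebp1* did not. Each sequence runs 5′ to 3′ on the strand of the gene over 300 bases, most of them before the annotated start, and capitals mark matches to the motifs searched.
*Akt1s1*, chr7:44850122-44850421, plus strand: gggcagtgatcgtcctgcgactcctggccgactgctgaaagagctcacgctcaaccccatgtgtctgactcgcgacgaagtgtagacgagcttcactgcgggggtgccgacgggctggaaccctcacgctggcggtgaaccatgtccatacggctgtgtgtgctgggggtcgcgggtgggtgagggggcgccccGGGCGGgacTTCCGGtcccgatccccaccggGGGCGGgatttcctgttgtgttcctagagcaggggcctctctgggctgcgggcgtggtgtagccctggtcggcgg
*Rheb*, chr5:24842312-24842611, minus strand: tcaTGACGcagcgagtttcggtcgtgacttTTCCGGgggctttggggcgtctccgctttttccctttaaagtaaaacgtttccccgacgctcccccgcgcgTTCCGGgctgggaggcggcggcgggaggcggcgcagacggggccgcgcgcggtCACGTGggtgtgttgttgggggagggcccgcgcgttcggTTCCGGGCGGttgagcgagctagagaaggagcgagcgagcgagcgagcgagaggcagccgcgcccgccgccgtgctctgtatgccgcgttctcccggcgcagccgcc
*Tsc1*, chr2:28640983-28641282, plus strand: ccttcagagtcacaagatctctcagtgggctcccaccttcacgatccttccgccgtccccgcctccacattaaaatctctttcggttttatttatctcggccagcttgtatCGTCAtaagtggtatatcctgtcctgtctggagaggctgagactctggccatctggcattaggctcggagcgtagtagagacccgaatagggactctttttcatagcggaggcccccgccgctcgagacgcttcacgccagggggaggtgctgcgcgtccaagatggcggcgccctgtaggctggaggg
*Prkaa2*, chr4:105109849-105110148, minus strand: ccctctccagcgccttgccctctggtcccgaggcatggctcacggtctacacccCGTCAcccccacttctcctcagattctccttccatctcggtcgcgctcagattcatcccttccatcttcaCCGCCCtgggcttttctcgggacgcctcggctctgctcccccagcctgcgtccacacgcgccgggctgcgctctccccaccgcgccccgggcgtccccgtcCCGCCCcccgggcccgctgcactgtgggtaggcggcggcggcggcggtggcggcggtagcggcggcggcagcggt
The search covered 8 motifs on both strands: the E-box CACGTG, the GC box GGGCGG, the CCAAT box CCAAT, the TATA box TATAAA, the ETS core CCGGAA, the C/EBP-ATF element TGATGCAA, the CRE TGACGTCA and the short CRE TGACG, which the full CRE contains. The *Akt1s1* window held 2 GC boxes and 1 ETS core. That of *Rheb* held 1 E-box, 1 GC box, 3 ETS cores and 1 short CRE, with 1 of the ETS cores overlapping the GC box. The *Tsc1* window held 1 short CRE, and that of *Prkaa2* held 2 GC boxes and 1 short CRE. Of all 32851 promoters of this length, 7.15% held the E-box, 35.66% the GC box, 37.41% the CCAAT box, 13.62% the TATA box, 14.9% the ETS core, 0.895% the C/EBP-ATF element, 1.79% the full CRE and 20.81% the short CRE. These matches are descriptions of letters and not of bound sites. The counting annotation starts *Akt1s1* and *Rheb* upstream of the RefSeq starts used for their windows, which lie wholly within the counted genes.

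Of the subunits of mTORC1 itself, the catalytic *Mtor* (ENSMUSG00000028991.15, GRCm38 chr4:148448611-148557683, plus strand) was measured at 107 and 108 CPM with nt-shRNA, at 112, 115 and 116 CPM with shRNA1, and at 112, 112 and 118 CPM with shRNA2. All 6 KD libraries lay just above both controls, and the hairpins overlapped each other. The log2 fold change was 0.09 with shRNA1 (95% interval -0.04 to 0.21, edgeR adjusted p = 0.286) and 0.08 with shRNA2 (-0.04 to 0.20, adjusted p = 0.258), so a change beyond these intervals was not seen. It passed the threshold under library size alone, at 0.20 (edgeR adjusted p = 0.0154) and 0.17 (adjusted p = 0.0216). shRNA2 against shRNA1 gave -0.01 (interval -0.12 to 0.10).

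*Rptor* (ENSMUSG00000025583.15, chr11:119602905-119899576, plus strand), which encodes the substrate-binding subunit raptor, had lower values in KD cells. Its level was 84.6 and 86.3 CPM with nt-shRNA, 71.4, 81.1 and 78.9 CPM with shRNA1, and 74.2, 77.3 and 79.1 CPM with shRNA2. No KD library reached either control. With each hairpin its log2 fold change came to -0.15, with intervals of -0.29 to -0.01 and edgeR adjusted p = 0.104 for shRNA1 and 0.0613 for shRNA2, neither past the threshold. Between the hairpins the interval ran from -0.13 to 0.12. The shRNA2 value passed when only the groups compared were fitted (edgeR adjusted p = 0.0459), without shRNA1 replicate 1 (adjusted p = 0.0458) and without shRNA1 replicate 3 (adjusted p = 0.0499). Both hairpins passed in the fit blocked by replicate number (-0.17 each, edgeR adjusted p = 0.0495 and 0.0285). Under library size alone the values were -0.034 with shRNA1 and -0.064 with shRNA2, and without shRNA1 replicate 1 the shRNA1 value was -0.094 (edgeR adjusted p = 0.339). *Rptor* shares 0.62% of its exon bases with *Rptoros* on the opposite strand.

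*Akt1s1* (ENSMUSG00000011096.17, chr7:44848991-44855421, plus strand) encodes PRAS40, an inhibitory subunit that AKT and mTORC1 phosphorylate. It was at 38.3 and 37.5 CPM with nt-shRNA, 38.3, 41.3 and 39.6 CPM with shRNA1, and 48.1, 51.3 and 43.8 CPM with shRNA2. The shRNA2 libraries stood above all the others, while the shRNA1 libraries overlapped the controls. With shRNA2 it rose by 25.9%, a log2 fold change of 0.33 (standard error 0.0782, edgeR adjusted p = 0.0013), and it was also higher than with shRNA1 by 0.26 (standard error 0.0701, adjusted p = 0.0065). With shRNA1 it was 0.07 (interval -0.10 to 0.23, edgeR adjusted p = 0.544), 0.040 without shRNA1 replicate 2 and 0.18 under library size alone. Both calls held in all 15 alternative settings. Of its exon bases, 5.27% are shared with *Tbc1d17* on the opposite strand or *Mir707*.

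*Deptor* (ENSMUSG00000022419.16, chr15:55112317-55259271, plus strand), the gene of the other inhibitory subunit, went in the opposite direction. It was at 71.3 and 77.2 CPM with nt-shRNA, 76.5, 70.6 and 66.0 CPM with shRNA1, and 64.0, 50.8 and 65.3 CPM with shRNA2. The shRNA2 libraries lay below all the others, with replicate 2 the lowest. With shRNA2 it fell by 19.2% (log2 fold change -0.31, standard error 0.0910, edgeR adjusted p = 0.0077), and it was lower than with shRNA1 by a log2 difference of -0.24 (standard error 0.0828, adjusted p = 0.0293). With shRNA1 the value was -0.07 (interval -0.26 to 0.12), and ran from -0.12 without shRNA1 replicate 1 to -0.0087 without nt-shRNA replicate 2. With shRNA2 the call against nt-shRNA was lost under library size alone (-0.22, edgeR adjusted p = 0.0592) and without nt-shRNA replicate 2 (-0.25, adjusted p = 0.0869), and it was smallest without shRNA2 replicate 2 (-0.20, adjusted p = 0.0370). The difference between hairpins was lost without shRNA2 replicate 2 (-0.13, edgeR adjusted p = 0.178), shRNA1 replicate 1 (-0.18, adjusted p = 0.140) or shRNA1 replicate 2 (-0.24, adjusted p = 0.0633). *Deptor* shares 3.41% of its exon bases with *Gm9920* on the opposite strand.

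**Figure D2:**
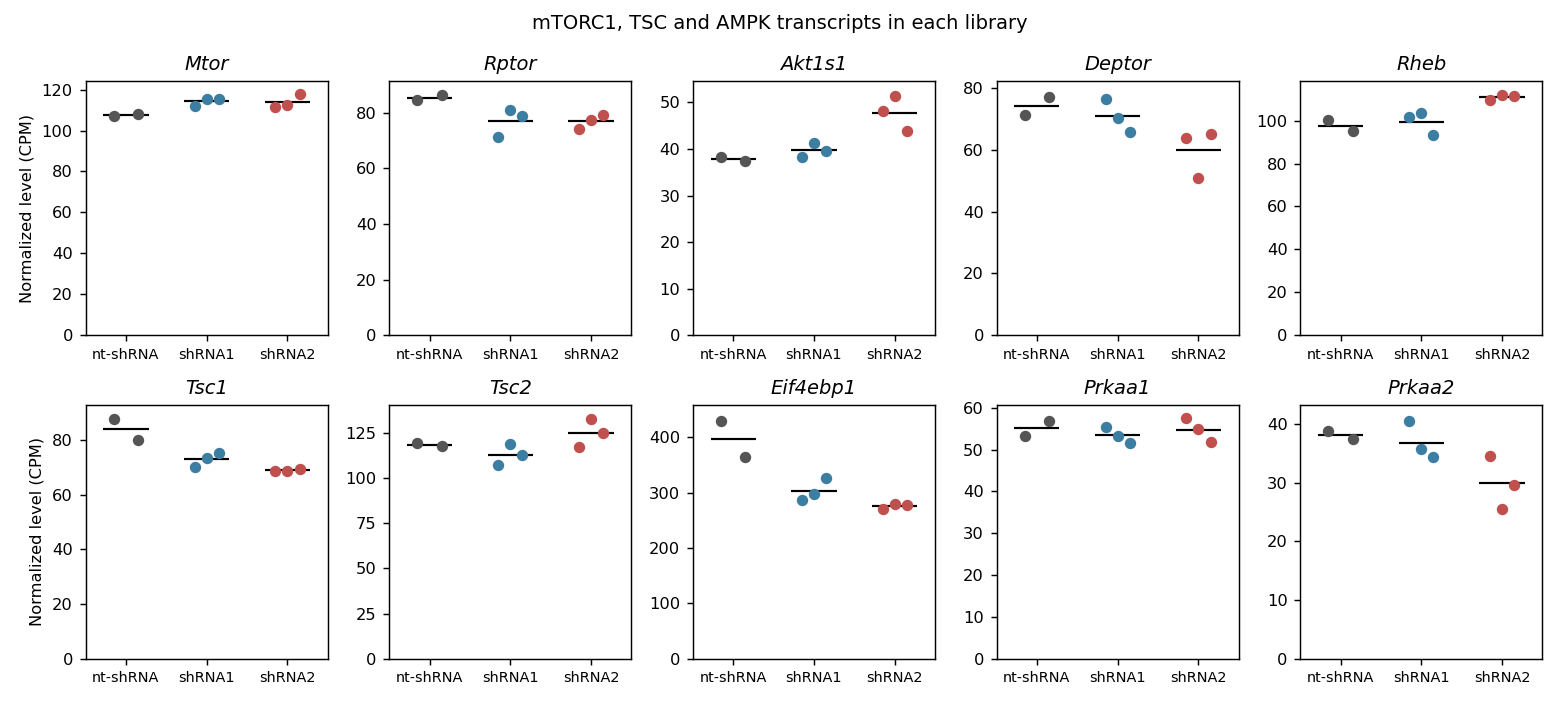
Level of each of the 10 members (y axis, CPM, starting at 0) by group (x axis), with 1 point per library and a line at the group mean. *Eif4ebp1* and *Tsc1* step down from nt-shRNA to both KD groups, and the shRNA2 points lie apart from both other groups for *Akt1s1*, *Rheb* and *Deptor*.

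*Rheb* (ENSMUSG00000028945.9, chr5:24802823-24842624, minus strand), the direct activator of mTORC1, was at 100.4 and 95.1 CPM with nt-shRNA, 102, 103 and 93.2 CPM with shRNA1, and 109.8, 112 and 111 CPM with shRNA2. The 3 shRNA2 libraries were close together and above the rest. *Rheb* rose with shRNA2 by 13.6% (log2 fold change 0.18, standard error 0.0635, edgeR adjusted p = 0.0191) and exceeded shRNA1 by 0.16 (standard error 0.0570, adjusted p = 0.0350). With shRNA1 it was 0.02 (interval -0.11 to 0.16). The increase against nt-shRNA was lost without the filter on low counts (0.16, edgeR adjusted p = 0.0730) and without nt-shRNA replicate 2 (0.14, adjusted p = 0.190). The difference between hairpins held in only 6 of 15 settings, with edgeR adjusted p up to 0.131 when shRNA1 replicate 3 was left out.

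*Tsc1* (ENSMUSG00000026812.16, chr2:28641228-28691167, plus strand) encodes hamartin, which stabilizes TSC2. It was at 87.6 and 80.2 CPM with nt-shRNA, 70.3, 73.4 and 75.4 CPM with shRNA1, and 68.9, 68.7 and 69.6 CPM with shRNA2. The 3 groups did not overlap, and the shRNA2 libraries agreed to within 1 CPM. It fell by 12.8% with shRNA1 (log2 fold change -0.20, standard error 0.0647, edgeR adjusted p = 0.0254) and fell by 17.7% with shRNA2 (-0.28, standard error 0.0649, adjusted p = 0.0012). The hairpins differed by -0.08 (interval -0.21 to 0.04, edgeR adjusted p = 0.296). The shRNA2 call held in all 15 alternatives. The shRNA1 call was lost under library size alone (-0.08, edgeR adjusted p = 0.330), with at least 10 counts required in every library (-0.17), and without shRNA1 replicate 1 (-0.17, adjusted p = 0.0890), shRNA1 replicate 2 (-0.20, adjusted p = 0.0697) or nt-shRNA replicate 1 (-0.13, adjusted p = 0.314).

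*Tsc2* (ENSMUSG00000002496.10, chr17:24595816-24632630, minus strand), the gene of the GTPase-activating partner, did not follow. It was at 119 and 118 CPM with nt-shRNA, 107, 119 and 113 CPM with shRNA1, and 117, 132 and 125 CPM with shRNA2. Each group overlapped the others. The log2 fold change was -0.07 with shRNA1 (interval -0.21 to 0.07, edgeR adjusted p = 0.460) and 0.08 with shRNA2 (-0.06 to 0.22, adjusted p = 0.334). With 1 library left out these ran from -0.11 to -0.032 (without shRNA1 replicates 2 and 1) and from 0.036 to 0.13 (without shRNA2 replicates 2 and 1). Between the hairpins it was 0.15 (0.02 to 0.27, edgeR adjusted p = 0.0635), which passed only without shRNA2 replicate 1 (0.19, adjusted p = 0.0429) or with the replicate number as a block. Of its exon bases, 7.20% overlap those of *Pkd1* on the opposite strand, and the counting used no strand.

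*Eif4ebp1* (ENSMUSG00000031490.6, chr8:27260329-27276674, plus strand) had the largest decrease among the 10 members with either hairpin. This mTORC1 substrate was at 429 and 365 CPM with nt-shRNA, 287, 297 and 326 CPM with shRNA1, and 271, 279 and 277 CPM with shRNA2. The groups were ordered nt-shRNA, shRNA1, shRNA2 with no overlap, and the 2 controls were the most spread. It fell by 23.5% with shRNA1 (log2 fold change -0.39, standard error 0.0706, edgeR adjusted p = 3.9e-04) and fell by 30.5% with shRNA2 (-0.52, standard error 0.0706, adjusted p = 4.3e-06). Both calls held in all 15 alternatives, with log2 fold changes of -0.50 to -0.26 for shRNA1 and -0.64 to -0.41 for shRNA2. shRNA2 against shRNA1 gave -0.14 (interval -0.27 to -0.00, edgeR adjusted p = 0.103), which passed under library size alone (-0.16, adjusted p = 0.0438) and without the filter (-0.15, adjusted p = 0.0392) but was -0.083 (adjusted p = 0.346) without shRNA1 replicate 3.

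Over the 8 libraries, the 3 tested genes with the log2 CPM pattern most like that of *Eif4ebp1* were *Cyc1* (Pearson r = 0.994), *Tsc1* (r = 0.994) and *Mlf2* (r = 0.993). These are descriptions over libraries that fall into 3 groups and share depth and scaling.

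The catalytic subunits of AMPK parted. *Prkaa1* (ENSMUSG00000050697.9, chr15:5143861-5181899, plus strand), the α1 subunit gene, was at 53.2 and 56.9 CPM with nt-shRNA, 55.4, 53.3 and 51.7 CPM with shRNA1, and 57.5, 54.8 and 51.9 CPM with shRNA2. The groups overlapped throughout. Its log2 fold changes were -0.04 with shRNA1 (interval -0.19 to 0.10) and -0.01 with shRNA2 (-0.16 to 0.14, edgeR adjusted p = 0.929).

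*Prkaa2* (ENSMUSG00000028518.8, chr4:105029874-105109890, minus strand), the α2 subunit gene, was at 38.8 and 37.6 CPM with nt-shRNA, 40.5, 35.8 and 34.3 CPM with shRNA1, and 34.5, 25.5 and 29.7 CPM with shRNA2. Each shRNA2 library was below both controls, and the highest of them just overlapped the lowest shRNA1 library. With shRNA2 it fell by 21.7% (log2 fold change -0.35, standard error 0.102, edgeR adjusted p = 0.0064), in all 15 alternatives too. It was also below shRNA1 by a log2 difference of -0.30 (standard error 0.0930, edgeR adjusted p = 0.0166), which was lost without shRNA1 replicate 1 (-0.23, adjusted p = 0.0966) or shRNA2 replicate 2 (-0.20, adjusted p = 0.103). With shRNA1 the value was -0.05 (interval -0.26 to 0.16). In bulk libraries such as these, fewer cells with a transcript and less of it per cell cannot be told apart.

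Ratios of related transcripts within a library do not depend on the scaling between libraries. These 3 pairs were chosen after the values of their genes had been seen, so the ratios describe and do not add independent support. *Tsc2* over *Tsc1*, in counts per kilobase, was 1.67 and 1.80 with nt-shRNA, 1.87, 1.99 and 1.84 with shRNA1, and 2.09, 2.37 and 2.21 with shRNA2. The 3 groups did not overlap, and the mean log2 ratio with shRNA2 was 0.35 (standard error 0.0759) above nt-shRNA and 0.23 (standard error 0.0629) above shRNA1.

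*Prkaa1* over *Prkaa2* was 2.35 and 2.59 with nt-shRNA, 2.34, 2.55 and 2.58 with shRNA1, and 2.85, 3.68 and 2.99 with shRNA2. Only the shRNA2 libraries stood apart, by 0.35 (standard error 0.134) on the log2 scale from nt-shRNA. *Eif4ebp1* over *Eif4ebp2*, the gene of a related 4E-BP, was 3.16 and 2.77 with nt-shRNA, 1.91, 2.08 and 2.23 with shRNA1, and 1.92, 1.97 and 1.85 with shRNA2. It was lower in all 6 KD libraries, by a log2 difference of -0.52 (standard error 0.115) with shRNA1 and -0.63 (standard error 0.0994) with shRNA2. *Eif4ebp2* alone did not pass the threshold, with log2 fold changes of 0.13 (interval 0.01 to 0.25) and 0.11 (-0.01 to 0.23). With 3 libraries against 2, a two-sided exact permutation test cannot go below p = 0.2, and with 3 against 3 it cannot go below 0.1. All 9 ratio comparisons were at that limit except *Prkaa1* over *Prkaa2* with shRNA1 against nt-shRNA (exact p = 0.8) and *Eif4ebp1* over *Eif4ebp2* with shRNA2 against shRNA1 (exact p = 0.3).

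**Figure D3:**
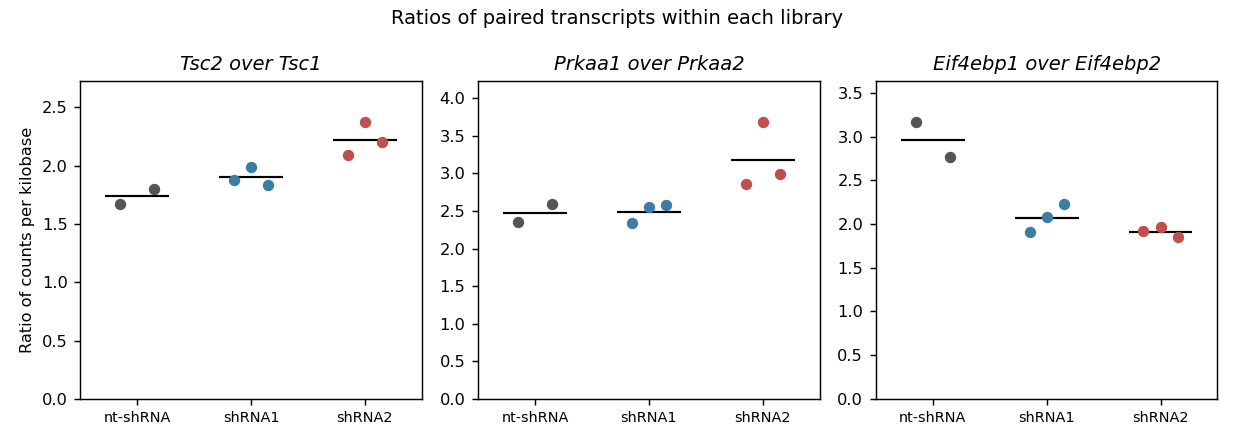
Ratio of counts per kilobase (y axis, starting at 0) of *Tsc2* over *Tsc1*, *Prkaa1* over *Prkaa2* and *Eif4ebp1* over *Eif4ebp2* by group (x axis), with 1 point per library and a line at the mean. The shRNA2 libraries lie at 2.09 to 2.37, 2.85 to 3.68 and 1.85 to 1.97.

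Per length of exon, *Eif4ebp1* was by far the most abundant member, at 181 ± 20.6 CPM per kilobase (SD, n = 2) with nt-shRNA, 138 ± 9.29 (n = 3) with shRNA1 and 126 ± 1.97 (n = 3) with shRNA2. With nt-shRNA the next were *Rheb* at 12.7 ± 0.483, *Akt1s1* at 12.3 ± 0.198, *Tsc2* at 12.3 ± 0.108, *Prkaa1* at 11.8 ± 0.562 and *Mtor* at 10.7 ± 0.0677 CPM per kilobase. Neighbours from *Rheb* to *Prkaa1* differed by no more than their spread. Below them came *Deptor* at 8.37 ± 0.465, *Tsc1* at 7.09 ± 0.440, *Rptor* at 6.34 ± 0.0927 and *Prkaa2* at 4.79 ± 0.110 CPM per kilobase. The length takes in every annotated exon base of a gene, so the order of genes and the size of the ratios above also depend on the annotation. With shRNA2, *Akt1s1* at 15.5 ± 1.22 CPM per kilobase came before *Rheb* at 14.4 ± 0.145, a gap within their spread. *Tsc1* at 5.84 ± 0.0386 and *Rptor* at 5.71 ± 0.186 CPM per kilobase also lay within their spread there, and *Prkaa2* was again the lowest, at 3.75 ± 0.564.

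**Figure D4:**
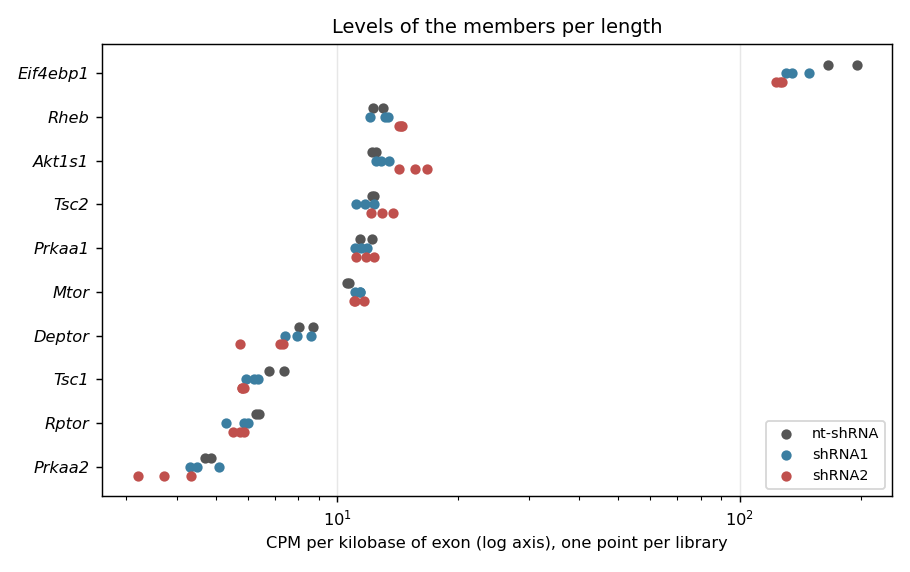
CPM per kilobase of exon (x axis, log scale) of each member (y axis, ordered by the nt-shRNA mean), with 1 point per library coloured by group. *Eif4ebp1* stands apart at 126 to 181 by group mean, and the other members lie between 3.75 and 15.5.

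The rest of the network was followed through 9 lists of 98 genes that are not members. With shRNA1, 15 of the 98 rose and 14 fell relative to nt-shRNA (median log2 fold change -0.03). With shRNA2, 21 rose and 23 fell (median 0.03), and between hairpins 23 were higher and 15 lower with shRNA2. These counts stand beside the shares of all genes given above. Scaling by library size alone changed the split to 24 higher and 5 lower with shRNA1 and to 33 higher and 15 lower with shRNA2. The shRNA1 counts were smaller without a control library, at 9 higher and 7 lower without nt-shRNA replicate 1 and 8 and 8 without nt-shRNA replicate 2. Without shRNA1 replicate 2, 7 were lower, and between hairpins 12 were higher without shRNA2 replicate 2.

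Among the 7 other mTOR complex subunits, 0 passed the threshold with shRNA2 in edgeR or DESeq2, although 2 were higher and 0 lower at an unadjusted edgeR p under 0.05, and 1 rose with shRNA1. Between hairpins 2 were higher with shRNA2, *Rictor* (0.21, edgeR adjusted p = 0.0085) and *Mlst8* (0.34, adjusted p = 0.0144), the latter named after its values were seen. The gene that rose with shRNA1 was *Mapkap1*, a subunit of mTORC2, at 47.6 ± 2.41 CPM with nt-shRNA and 54.2 ± 1.68 CPM with shRNA1 (log2 fold change 0.19, edgeR adjusted p = 0.0476), a call that held in only 7 of 15 alternatives and was lost without nt-shRNA replicate 2 (0.14, adjusted p = 0.334). *Rictor*, the defining subunit of mTORC2, was at 0.14 with shRNA2 (interval 0.00 to 0.28, edgeR adjusted p = 0.0789) and passed in 4 of 15 alternatives, at 0.23 under library size alone (adjusted p = 0.0069), 0.16 with at least 10 counts, 0.17 with the replicate block and 0.18 without shRNA2 replicate 3. With shRNA2, *Mapkap1* was at 0.15 and passed in 2 alternatives, library size alone (0.24, edgeR adjusted p = 0.0061) and at least 10 counts (0.18, adjusted p = 0.0328), but was at 0.10 without nt-shRNA replicate 2 (adjusted p = 0.405). *Tti1*, an assembly factor, was at -0.09 (-0.23 to 0.04), and at -0.0018 under library size alone. Of the other TSC and RHEB genes, *Rhebl1*, a close relative of *Rheb*, rose with shRNA2 from 23.7 ± 1.71 to 27.6 ± 1.06 CPM (log2 fold change 0.22, edgeR adjusted p = 0.0345), a call that held in 10 of 15 alternatives and was lost without nt-shRNA replicate 2 (0.14, adjusted p = 0.311). *Tbc1d7*, the further subunit of the TSC complex, was at -0.19 (interval -0.43 to 0.04) and at -0.093 without shRNA2 replicate 1.

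The 12 other AMPK subunits and upstream kinases held 2 genes that rose and 2 that fell with shRNA1, and 2 that rose and 5 that fell with shRNA2. *Map3k7* encodes TAK1, a kinase known to act upstream of AMPK. It rose from 73.9 ± 0.389 CPM with nt-shRNA to 91.9 ± 5.10 CPM with shRNA1 and 128 ± 5.81 CPM with shRNA2 (log2 fold changes 0.31 and 0.79, edgeR adjusted p = 0.0015 and 1.2e-08). *Cab39*, a scaffold of the LKB1 complex, rose by 0.31 and 0.34 (adjusted p = 6.7e-04 and 9.6e-05). *Camkk2*, a calcium-dependent AMPK kinase, fell with shRNA2 (-0.42, edgeR adjusted p = 1.4e-04).

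On the amino acid side, 0 of the 13 Rag GTPase and Ragulator genes rose with shRNA1 in edgeR (0 at an unadjusted p under 0.05, 0 in DESeq2) and 3 fell, and 1 rose and 2 fell with shRNA2. *Lamtor2*, a subunit of the lysosomal Ragulator scaffold, fell from 129 ± 0.928 CPM to 91.2 ± 6.94 CPM with shRNA1 and 70.5 ± 3.86 CPM with shRNA2. *Lamtor2* had log2 fold changes of -0.49 and -0.87 (edgeR adjusted p = 3.0e-05 and 6.6e-09). Its partner *Lamtor1* rose with shRNA2 (0.29, adjusted p = 0.0049), a call lost without nt-shRNA replicate 2 (0.25, adjusted p = 0.0622), and *Fnip1*, which acts with folliculin, fell (-0.17, edgeR adjusted p = 0.0333) but passed in only 7 of 15 alternatives and was -0.082 under library size alone. Of the 12 GATOR and KICSTOR genes, 1 rose and 2 fell with shRNA1, and 1 rose and 3 fell with shRNA2. *Seh1l*, which is shared with the nuclear pore, fell with both hairpins (-0.27 and -0.21, edgeR adjusted p = 0.0024 and 0.0078), calls lost under library size alone (-0.16 and -0.12) and without nt-shRNA replicate 2 (-0.21 and -0.15, adjusted p = 0.0801 and 0.159). With shRNA2, *Itfg2*, a KICSTOR subunit, rose (0.43, adjusted p = 2.3e-04) and *Depdc5*, a GATOR1 subunit, fell (-0.28, adjusted p = 0.0024).

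In the fit over all 8 libraries, the stress and nutrient sensors held the largest called changes of the 9 lists in each direction. With 1 library left out, the shRNA2 values ran from -1.11 to -0.78 for *Trib3* and from -0.91 to -0.83 for *Lamtor2*. The rank of the largest decrease was therefore not kept in every such fit. Of 8 genes, 3 rose and 2 fell with shRNA1, and 3 rose and 3 fell with shRNA2. *Ddit4l*, a relative of the mTORC1 inhibitor REDD1, rose from 13.3 ± 0.0011 CPM to 26.6 ± 1.33 CPM and 32.4 ± 4.16 CPM (log2 fold changes 1.00 and 1.28, edgeR adjusted p = 1.4e-06 and 8.5e-09). The means of *Ddit4*, the gene of REDD1 itself, went the other way at a higher level. They were 196 ± 14.6 CPM with nt-shRNA, 160 ± 32.8 CPM with shRNA1 and 143 ± 19.3 CPM with shRNA2. *Trib3*, a pseudokinase induced by stress that binds AKT, fell from 41.3 ± 6.63 CPM to 21.8 ± 3.94 CPM and 21.3 ± 3.14 CPM (-0.91 and -0.95, adjusted p = 3.4e-05 and 4.9e-06). *Sesn2*, a leucine sensor, rose with shRNA2 from 80.8 ± 5.71 CPM to 122 ± 25.7 CPM (0.59, edgeR adjusted p = 2.1e-04), and exceeded shRNA1 by 0.69 (adjusted p = 5.1e-05).

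Of the 16 PI3K and AKT inputs, 4 rose and 0 fell in edgeR with shRNA1 (1 lower at an unadjusted p under 0.05, 0 in DESeq2), and 4 rose and 4 fell with shRNA2. *Pdpk1*, the kinase that activates AKT, rose from 72.7 ± 0.0340 CPM to 87.0 ± 5.31 CPM and 118 ± 3.57 CPM (log2 fold changes 0.26 and 0.69, edgeR adjusted p = 0.0060 and 5.9e-08). Its shRNA1 call was lost without nt-shRNA replicate 1 (0.26, edgeR adjusted p = 0.0559) or replicate 2 (0.26, adjusted p = 0.0515). With shRNA2, the regulatory subunit gene *Pik3r2* rose (0.29, edgeR adjusted p = 0.0036) and the insulin receptor gene *Insr* fell (-0.30, adjusted p = 0.0055).

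Downstream, 2 of 18 mTORC1 substrates and translation effectors rose and 4 fell with shRNA1, and 7 rose and 4 fell with shRNA2. *Eef2*, the elongation factor, fell from 6183 ± 211 CPM to 4512 ± 460 CPM and 4072 ± 14.5 CPM (log2 fold changes -0.45 and -0.60, edgeR adjusted p = 9.9e-05 and 9.2e-07). Its inhibitory kinase *Eef2k* fell with shRNA2 (-0.44, adjusted p = 7.1e-05), and *Grb10*, an adaptor that mTORC1 phosphorylates, rose (0.82, adjusted p = 4.9e-06). Of 10 targets in autophagy and lipid metabolism, 2 rose and 1 fell with shRNA1, and 2 rose and 2 fell with shRNA2. *Tbc1d1*, an AMPK substrate in glucose uptake, fell with both hairpins (-0.23 and -0.64, edgeR adjusted p = 0.0173 and 2.6e-07). Its shRNA1 call was lost in 4 of 15 alternatives, which were library size alone (-0.11, edgeR adjusted p = 0.226) and leaving out shRNA1 replicate 2 (-0.19), nt-shRNA replicate 1 (-0.20) or nt-shRNA replicate 2 (-0.25). The autophagy kinase gene *Ulk2* fell with shRNA2 (-0.87, adjusted p = 6.3e-06), and *Rb1cc1*, a subunit of the ULK complex, rose with both (0.30 and 0.32, edgeR adjusted p = 0.0082 and 0.0025), though the shRNA1 call was lost without shRNA1 replicate 1 (0.23, adjusted p = 0.0502) or nt-shRNA replicate 1 (0.26, adjusted p = 0.110).

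**Figure D5:**
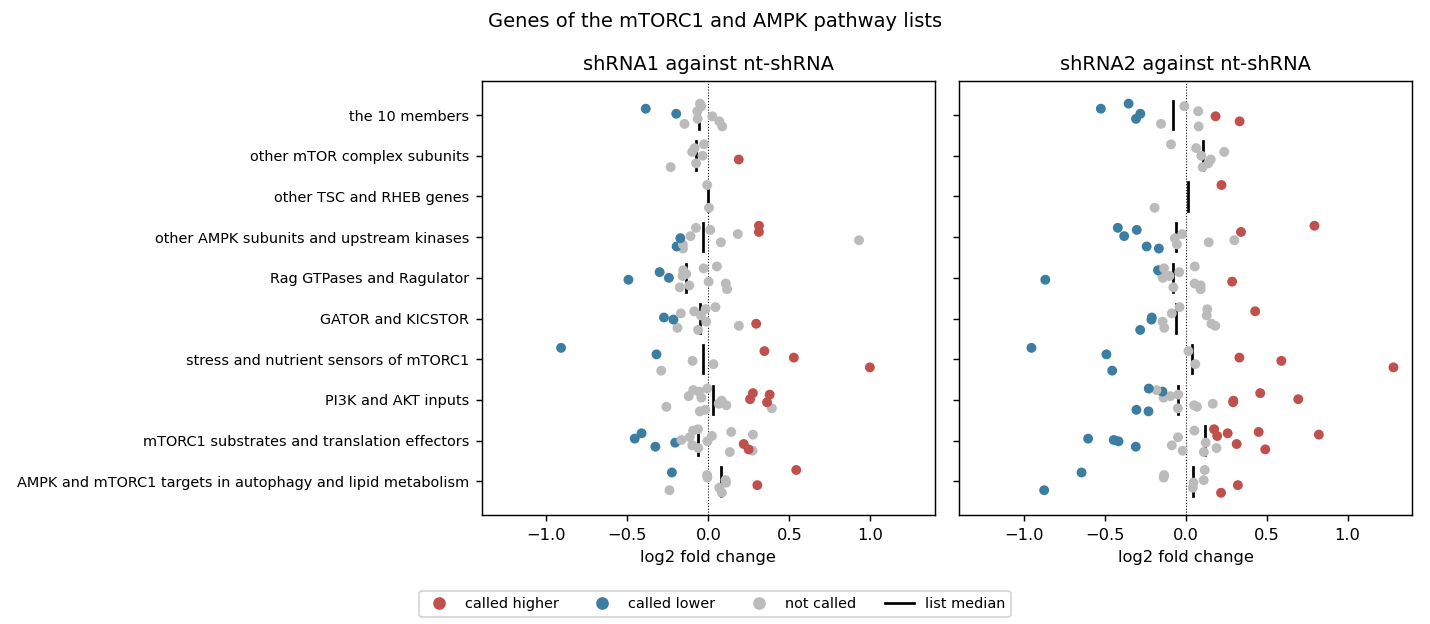
Log2 fold change (x axis) of each gene in the 10 members and in the 9 other lists (y axis), with shRNA1 on the left and shRNA2 on the right, red for called higher, blue for called lower, grey for not called and a black bar at each list's median. Every list median lies between -0.14 and 0.12, and *Ddit4l* at 1.28 and *Trib3* at -0.95 are the outermost called genes with shRNA2.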

How the data were processed

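Poly(A)-selected libraries from R1 mESCs, sequenced as paired ends, were aligned by the authors with STAR to mm10 (GRCm38), and the deposited table holds their raw counts of fragments per gene from featureCounts 1.6.2 on GENCODE M24 exons. Per the file headers, counting used no strand and no option for fragments that align to several places or overlap several genes, so overlapping genes are uncertain. The deposited exon length was used only for levels per kilobase. Symbols came from GENCODE M21 by Ensembl identifier (55144 of 55385 genes matched). No per-sample column was left out.

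One edgeR 4.0.16 model in R 4.3.3 took the counts of every library (filterByExpr with a minimum count of 10, TMM, glmQLFit and glmQLFTest, a coefficient per group, no block). Genes were called at a Benjamini-Hochberg adjusted p under 0.05 over 17445 genes, and standard errors came from the F statistic. The biological coefficient of variation was 0.0638. Code was tested on simulated data first. Replicates differed by more than sampling noise, with chi-square per gene of 3.12 to 12.17. The highest value was that of the nt-shRNA pair, which were also the deepest libraries, while KD pairs reached 8.37. Samples were grouped by title. Promoters and motifs came from RefSeq tables read in Python 3.11.15, with figures from matplotlib 3.10.9 and exact permutation tests of ratios from scipy 1.17.1.

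The members and all lists were chosen with earlier results of these data known. The text names every member, *Eftud2*, and of each list the 3 genes with the smallest adjusted p with shRNA2 against nt-shRNA, plus the one with the smallest adjusted p called in the direction opposite to the first, and 3 genes most like the member with the smallest adjusted p by Pearson correlation of log2 CPM (prior count 2). *Eif4ebp2* and *Ddit4* were named after their values were seen. *Nanog*, *Pou5f1* and *Sox2*, from the pluripotency list, were also named outside this rule. One gene that this rule names is not reported here. The 15 alternatives changed the tool, the scaling, the filter, the fit or the libraries. The other tool was DESeq2, which the authors also used, here in version 1.42.0 with its Wald test. The scaling used DESeq2 size factors or library size alone, and the filter was none or 10 counts or more in each library. The fit took the pair of groups alone or a replicate block, and each of the 8 libraries was omitted in turn. Splicing was not analysed here.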

Additional observations from a re-analysis of the deposited data

How the results depend on the processing

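Calls of *Akt1s1*, *Tsc1*, *Eif4ebp1* and *Prkaa2* with shRNA2 against nt-shRNA held under all 15 alternatives, as did *Eif4ebp1* with shRNA1. *Eftud2* with shRNA1 against nt-shRNA was past the threshold at -0.18 without a filter, -0.16 with only the groups compared and -0.21 with the replicate block, was -0.065 (edgeR adjusted p = 0.498) under library size alone, and ran from -0.20 to -0.16 over the fits leaving out 1 library each, passing without shRNA2 replicate 2 (edgeR adjusted p = 0.0415) or replicate 3 (0.0215). Between hairpins it ran from -0.19 (without shRNA2 replicate 3, adjusted p = 0.0127) to -0.068. Of the members, library size alone called 1 higher and 1 lower with shRNA1, 4 higher with shRNA2, and 1 higher between hairpins. Under that scaling *Tsc1*, *Eif4ebp1* and *Prkaa2* were also lower with shRNA2, and *Deptor*, *Prkaa2* and *Eif4ebp1* were lower between hairpins. Requiring at least 10 counts left 1 lower with shRNA1, no filter left 1 higher with shRNA2 and 1 higher between hairpins, and only the groups compared left 1 higher between hairpins. Leaving out 1 library gave 1 to 2 lower with shRNA1, 1 to 2 higher with shRNA2, and 1 to 2 higher and 0 to 2 lower between hairpins.

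Values that changed sign were all uncalled. Under library size alone they were *Deptor* 0.047, *Prkaa1* 0.069, *Prkaa2* 0.062 and *Tsc2* 0.046 with shRNA1, and *Prkaa1* 0.080 with shRNA2. *Prkaa1* with shRNA2 was also 0.017 with at least 10 counts and 0.022 with the replicate block. With 1 library left out, values ran from -0.030 to 0.0087 for *Mtor* and -0.058 to 0.033 for *Rptor* between hairpins, from -0.015 to 0.071 for *Rheb* and -0.12 to 0.00073 for *Prkaa2* with shRNA1, and for *Prkaa1* from -0.091 to 0.0050 with shRNA1, -0.059 to 0.038 with shRNA2 and -0.0021 to 0.073 between hairpins. The cause was not tested. Leaving out a control library leaves 1 nt-shRNA library, assumed to vary like the other groups.

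Numbers were not treated as pairs, since the paper states no pairing for the sequencing, although its qPCR replicates were compared pairwise with their controls. Deviations from the group means of libraries with the same number correlated by r of -0.03 to 0.07 over 7 pairs, none above 0.1. Deviations of the 2 controls mirror each other, so these pairs are not independent and cannot show that pairing is absent. Blocking by replicate number gave 2694 higher and 3324 lower genes with shRNA1 over all genes. With the replicate block 0 members were higher and 3 lower with shRNA1, 2 and 5 with shRNA2, and 3 and 2 between hairpins, with *Rptor* added against nt-shRNA (-0.17 with either hairpin, edgeR adjusted p = 0.0495 and 0.0285) and *Tsc2* between hairpins (0.14, adjusted p = 0.0432). *Tsc2* with shRNA2 passed under library size alone (0.17, edgeR adjusted p = 0.0390). Over all genes, the shRNA1 calls were 2407 higher and 2981 lower, against 4101 and 1713 under library size alone, 1248 and 1700 without nt-shRNA replicate 1, and 1531 and 2077 without nt-shRNA replicate 2. Only 2 control libraries limit every comparison with nt-shRNA, and intervals and floors cover these libraries alone.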
